A study of Mus musculus with 32 samples.

Results

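The 10 genes described here encode enzymes of glycolysis and lactate metabolism: Hk1, Hk2, Pfkp, Aldoa, Tpi1, Gapdh, Pgk1, Eno2, Ldha and Ldhb. They were taken by symbol from the 38740 symbols of the expression table, and all 10 are in it. RNA had been profiled from mouse subventricular zone, a germinal layer along the forebrain ventricle, at postnatal day 21. There were 28 libraries of 1 cell each and 4 libraries of 10 pooled cells. The labels name no genotype, strain, animal, treatment or sort, so no group carries an allele or agent that can be stated. The cells therefore count as 1 sample, and differences are given without p-values. Values are in FPKM, a count of sequenced fragments divided by transcript length in kilobases and by the library's mapped fragments, so levels of different genes can be compared per length.

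A gene was called found in a library at an FPKM of at least 1. Cells had 2107 to 10169 genes found, with a median of 4986, and pools had 10478 to 12870. In 21 of the 32 libraries low values showed a clear step, read as 1 fragment, from which depths were about 6.21 to 38.9 (in units of 1000000 fragments). Some libraries stood apart. In cells 18 to 22, and separately in cells 23 to 28, genes that were high in 1 cell recurred at a trace level in the rest of the set. Of genes at 500 FPKM or more in 1 cell and under 5% of that level in the others, the low values were above 0 in 98.7% of cases in cells 18 to 22 and 97.6% in cells 23 to 28, against 15.1% in cells 1 to 17. Low values in those 11 cells may thus be shared between libraries, and the main results that rest on them are also given for cells 1 to 17. No pair of libraries held identical values.

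Cell labels below come from marker lists that contain none of the 10 genes, and each cell is named by its leading list. Cells 1, 2, 3, 6, 7, 8, 16 and 17 were endothelial-like, with 10 to 12 of 12 markers found, although cell 3 also had 9 of 12 microglial markers. Cells 4, 12 and 13 were oligodendrocyte-like, cells 11 and 14 astrocyte-like, cells 9 and 15 ependymal-like, and cell 5 choroid plexus-like, the last with 9 of 10 markers but also 9 of 16 ependymal ones. Cell 10 was led by the neural stem list with 8 of 12 markers but also had 10 of 16 ependymal markers, so it is named only by that list. Cells 18 to 21 were microglia-like and cells 22 to 28 neuroblast-like. Cell 21 was led by the neuroblast list once trace values were removed. Pools 1 and 4 were led by the oligodendrocyte list and pools 2 and 3 by the endothelial list. A further list was fully found in 3 pools: choroid plexus in pool 1 (10 of 10), microglia in pool 2 (12 of 12) and astrocyte in pool 4 (14 of 14). In a pool, fewer cells of a type and less RNA per cell cannot be told apart.

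Glycolysis turns glucose into pyruvate in the cytosol and yields ATP without oxygen. Hexokinases trap glucose by phosphorylating it, phosphofructokinase makes the committed step, and aldolase splits the sugar into trioses that the later enzymes carry to pyruvate. Lactate dehydrogenase interconverts pyruvate and lactate. Its A subunit is known for favouring lactate production and its B subunit for favouring lactate use. In brain, astrocytes and endothelium are known as strongly glycolytic, and lactate passes between cell types through monocarboxylate transporters.

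Several of these genes have processed pseudogenes, intronless copies made by reverse transcription of their mRNA. Reads from a gene and a near-identical copy cannot be told apart with certainty, so the copies limit how the gene's own value can be read. Processed pseudogenes with at least 90% identity to a member over at least 50% of their own length numbered 149 in the expression table. Gapdh had 137 of them, Ldha 8, Pgk1 2, Aldoa 1 and Ldhb 1. Hk1, Pfkp and Eno2 had none annotated, and the copies annotated for Hk2 (1) and Tpi1 (2) were not among the symbols analysed here. Of the 137 Gapdh copies, 131 were found in at least 1 library. A match to a copy is a description of sequence and not a count of misplaced reads.

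The sequences below show how close copies selected by mean FPKM are to their genes, and not every copy was open to selection. Each is the same 90-base stretch of the coding sequence, 5′ to 3′, taken where the shown copies differ most from the gene. Capitals mark bases that differ from the gene. Positions are counted from 1 at the start codon's first base, and the sequences are GENCODE M21 transcripts on GRCm38. The Gapdh stretch covers coding positions 130 to 219.
Gapdh: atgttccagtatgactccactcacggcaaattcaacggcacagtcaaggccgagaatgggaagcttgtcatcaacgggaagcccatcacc
Gm5559: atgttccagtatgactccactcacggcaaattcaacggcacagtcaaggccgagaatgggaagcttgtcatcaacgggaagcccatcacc
Gm3200: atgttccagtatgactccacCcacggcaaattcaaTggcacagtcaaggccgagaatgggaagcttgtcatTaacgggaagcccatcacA
Gm13394: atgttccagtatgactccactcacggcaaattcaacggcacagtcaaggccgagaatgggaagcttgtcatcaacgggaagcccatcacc

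Over the whole 999-base Gapdh coding sequence, Gm5559 (chr5:95861714-95862715, + strand) differed at 1 base, Gm13394 (chr2:28933610-28934609, - strand) at 1 base and Gm3200 (chr7:100760805-100761806, - strand) at 14 bases. Ldhb has 1 copy in the table, Gm5514 (chr19:21937380-21938381, + strand), which differed at 20 of 1002 coding bases. The expression table's model of Gm5514 spans only 306 bases, so its FPKM is computed over a shorter length than the annotated 1002-base copy. The Ldhb stretch covers coding positions 853 to 942.
Ldhb: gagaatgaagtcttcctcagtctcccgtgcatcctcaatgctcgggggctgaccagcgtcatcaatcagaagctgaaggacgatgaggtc
Gm5514: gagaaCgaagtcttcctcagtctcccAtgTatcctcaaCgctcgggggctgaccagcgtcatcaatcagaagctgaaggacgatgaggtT

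Ldha copies were more diverged, with identities of 90.8% to 94.2% to the transcript. The copy shown is Ldha-ps2 (chr4:119334389-119335445, - strand), which differed at 51 of 993 aligned coding bases, with 4 gaps in the alignment. The Ldha stretch covers coding positions 316 to 405.
Ldha: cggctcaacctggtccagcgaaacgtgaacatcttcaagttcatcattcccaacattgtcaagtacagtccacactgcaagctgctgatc
Ldha-ps2: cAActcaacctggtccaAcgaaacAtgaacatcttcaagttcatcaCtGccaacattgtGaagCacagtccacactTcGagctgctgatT

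Both Pgk1 copies matched the 1251-base Pgk1 coding sequence without any difference where they aligned. Gm5537 (chr3:58102996-58104247, - strand) aligned over all 1251 bases and Pgk1-rs7 (chr12:10898986-10900240, - strand) over 1250 bases. The Pgk1 stretch covers coding positions 4 to 93 and is identical in all shown.
Pgk1: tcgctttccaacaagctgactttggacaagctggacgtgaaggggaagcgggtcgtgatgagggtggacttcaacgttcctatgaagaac
Gm5537: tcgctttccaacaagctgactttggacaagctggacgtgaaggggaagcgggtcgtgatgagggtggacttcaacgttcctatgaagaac
Pgk1-rs7: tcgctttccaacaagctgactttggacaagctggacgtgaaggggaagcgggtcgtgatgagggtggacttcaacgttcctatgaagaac

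Of the 280 pairs of a member and a cell, 141 were found. Gapdh, Aldoa, Tpi1, Pgk1 and Ldhb were each found in at least 20 of 28 cells, which makes 5 of 10 members, where 8.23% of all 19783 genes found in any library reached that number. With values under 2% of a library set's highest put at 0, only Gapdh still reached it. Aldoa, Tpi1 and Pgk1 were then found in 17 cells and Ldhb in 16. The share of all genes was not computed under that limit. Hk1, Hk2, Pfkp and Eno2 were found in 7 cells or fewer. A cell had 2 to 9 of the members found, with a median of 5, and a pool had 7 to 9. Choroid plexus-like cell 5 had 9, all but Eno2, and it also had the largest number of genes found of any cell. In cells 1 to 17 the summed FPKM of the members was 115 in endothelial-like cell 1, the lowest, and 4063 in cell 5, the highest. Intervals on shares of cells are exact Clopper-Pearson 95% intervals and cover counting error only. An exact 0 can be a failed estimate, so such values are described as listed at 0.

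**Figure D1:**
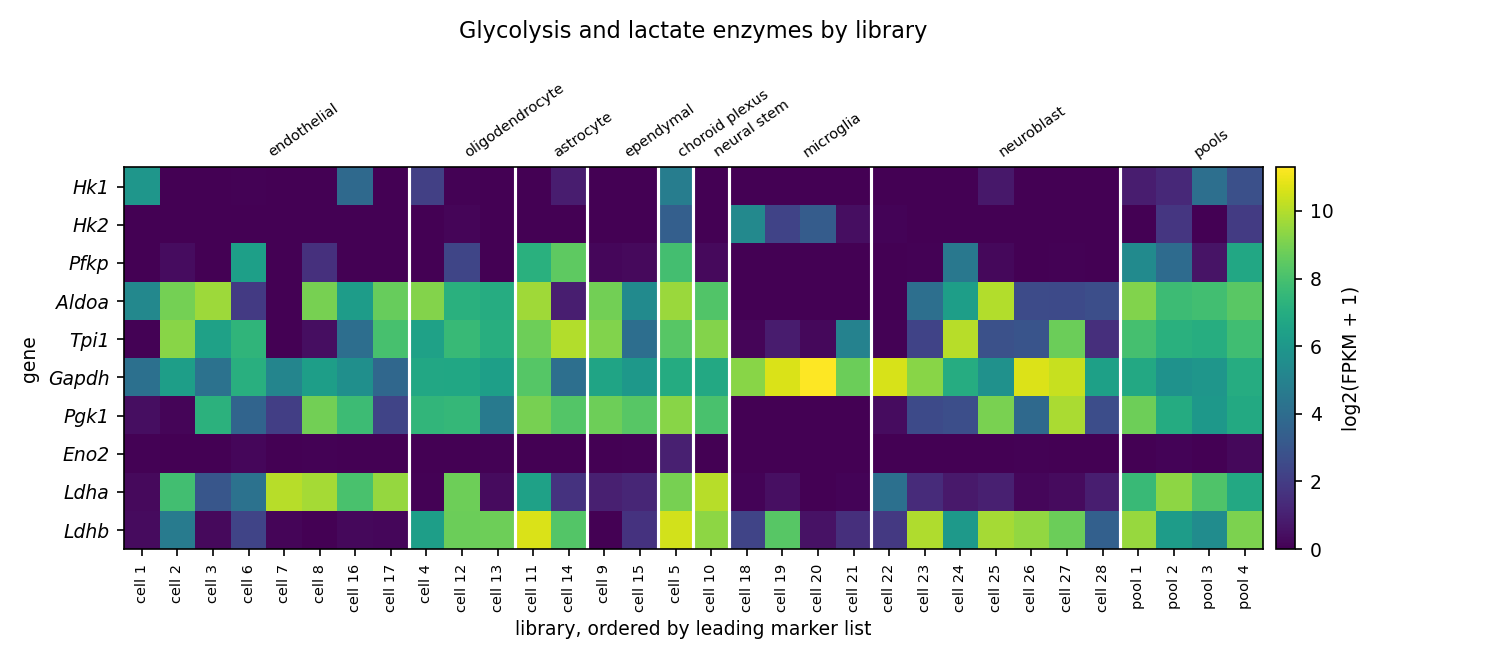
FPKM of the 10 members on a colour scale of log2(FPKM + 1), by library in columns and gene in rows. Gapdh is found in all 28 cells, Eno2 in none, and Aldoa and Pgk1 are found in 15 of cells 1 to 17.

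Hexokinases, the entry enzymes, were seldom found. Hk1 (chr10:62268855-62379908), the hexokinase usually prominent in brain, was found in 4 of 28 cells, 14.3% with an interval of 4.03% to 32.7%. Its values there were 59.6 FPKM in endothelial-like cell 1, 26.3 in choroid plexus-like cell 5, 13.6 in endothelial-like cell 16 and 3.36 in oligodendrocyte-like cell 4, and it was listed at 0 in 16 cells. In pools 1 to 4 Hk1 stood at 0.879, 1.45, 16.5 and 5.83 FPKM. The Hk1 values of pools all lay inside the range of the cells, and the highest pool was led by the endothelial list.

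Hk2 (chr6:82725025-82774454), the hexokinase known for induction by insulin and hypoxia, was also found in 4 cells, and they differed from those of Hk1 except for cell 5. It reached 38.2 FPKM in cell 18, 8.68 in cell 20 and 3.87 in cell 19, all microglia-like, and 9.60 in cell 5. The remaining microglia-like cell, cell 21, had 0.317. Of cells 1 to 17 only cell 5 had Hk2 found, so the microglial values rest on libraries that share trace values. All 4 calls stood when values under 2% of the set's highest were put at 0, but none of them could have changed. The limit for Hk2 lies below 1 FPKM in the set of the microglia-like cells, and cell 5 is outside the sets. Hk2 in pools 1 to 4 was 0, 2.50, 0 and 2.94 FPKM. Either hexokinase was found in 7 cells, and both were found in 1.

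Pfkp (chr13:6579768-6648777), the platelet-type subunit of phosphofructokinase, was found in 7 cells, 25% with an interval of 10.7% to 44.9%. Both astrocyte-like cells were among the 3 highest, at 361 FPKM in cell 14 and 143 in cell 11, with cell 5 between them at 238. Endothelial-like cells 6 and 8 had 82.6 and 1.92, neuroblast-like cell 24 had 21.8, and oligodendrocyte-like cell 12 had 4.05. The other 21 cells were below 1 FPKM, 14 of them listed at 0. In pools Pfkp read 41.0, 14.4, 0.510 and 108 FPKM. Pool 4 was highest, and its astrocyte list mean of 7.0 on the log2(FPKM + 1) scale was above those of pools 1 to 3, which were 1.45, 2.15 and 2.83. The choroid plexus list means were 7.81, 1.21, 1.73 and 6.68, high in pools 1 and 4, which had the most Pfkp. Those of the oligodendrocyte list were 8.84, 6.53, 1.33 and 9.36, which rank the pools as Pfkp does. All 14 astrocyte markers were found in pool 4 and all 10 choroid plexus markers in pool 1. The part of any of these cell types in the Pfkp values was not tested.

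The enzymes of the middle of the pathway were found in more cells. Aldoa (chr7:126795234-126800751), aldolase A, was found in 21 of 28 cells, 75% with an interval of 55.1% to 89.3%. In cells 1 to 17 it ran from 0 to 820 FPKM with a median of 294. All 4 microglia-like cells were listed at 0, and neuroblast-like cell 22 of the same library set had 0.0239. In cells 23 to 28 it was 16.5, 78.0, 1014, 5.01, 4.77 and 5.45. Once trace values were put at 0, Aldoa was found in 17 cells in place of 21. Pools stood closer together, at 562, 214, 231 and 338 FPKM.

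Tpi1 (chr6:124810586-124814296), triosephosphate isomerase, was likewise found in 21 cells. All 9 cells of 1 to 17 that were not endothelial-like had it, against 5 of the 8 endothelial-like cells. Across cells 1 to 17 the lowest value was 0, the median 166 and the highest 1014 FPKM, the last in astrocyte-like cell 14. The highest of all was neuroblast-like cell 24 at 1069.8, followed within its set by cell 27 at 430, while the other 4 cells of that set had 1.87 to 6.60. Pools had 247, 143, 131 and 228 FPKM. Without trace values the number of cells fell to 17.

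Pgk1 (chrX:106187100-106203699), phosphoglycerate kinase, makes the first ATP of the pathway's payoff phase. It too was found in 21 cells, and in 17 without trace values. Cells 1 to 17 spanned 0.0998 to 613 FPKM with a median of 185. In cells 18 to 22 it did not exceed 0.296, whereas cells 25 and 27 had 511 and 920.1 and the other 4 cells of their set 4.80 to 13.5. Its pool values were 442, 121, 64.5 and 116 FPKM, with pool 1 far above the rest.

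Gapdh (chr6:125161853-125166467), glyceraldehyde-3-phosphate dehydrogenase, is widely used as a reference for RNA amounts. It was the only member found in all 28 cells, with an interval of 87.7% to 100%. In cells 1 to 17 the lowest value was 12.5, the median 78.7 and the highest 312 FPKM, the last in astrocyte-like cell 11. Cells 18 to 22 had 616, 1603, 2495, 428 and 1555 FPKM, and each was above every one of cells 1 to 17. In cells 23 to 28 the lowest was 51.4, the median 377 and the highest 1646. Pools had 111, 52.5, 59.5 and 124 FPKM, inside the range of cells 1 to 17. Gapdh made up 82.8% to 99.6% of the members' summed FPKM in cells 18 to 22, against 0.818% to 32.6% in cells 1 to 17. Those 5 cells also had few genes found, 2107 to 3020, and the part of this in their Gapdh values was not tested.

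Eno2 (chr6:124760053-124769673), neuron-specific enolase, was found in no library. Its highest value was 0.976 FPKM in cell 5, just under the threshold, and it was listed at 0 in 17 cells. Pools had 0.0278 to 0.176. A count of 0 of 28 cells allows a share of up to 12.3% of cells at 1 FPKM or more. It does not limit the share of cells that express the gene, since 11 cells were above 0 and 2 were at 0.1 FPKM or more. Mature neuron markers were low in the pools, with list means of 0.209 to 0.995 on the log2(FPKM + 1) scale. Whether their level goes with that of Eno2 was not tested.

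Gapdh values move with its copies, and the division between gene and copies differed between library sets. The gene held 17.2% to 44.5% of the summed FPKM of Gapdh and its copies in cells 1 to 17, with a median of 30.6%. In cells 23 to 28 the median was 28.2% and the range 24.4% to 43.8%. In cells 18 to 22 the gene held 64.1% to 94.2%, with a median of 91.8%, above all of the other 23 cells. Pools 1 and 2 had 34.4% and 33.7%, and pools 3 and 4 had 55.7% and 59.9%. Processed pseudogenes of all kinds took 0.0873% to 0.338% of all FPKM in cells 18 to 22, 5.24% to 15.1% in cells 1 to 17 and 6.06% to 11.1% in cells 23 to 28. In the pools they took 10.5%, 13.9%, 3.15% and 1.90%. The part of read placement in these differences was not tested.

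Summing gene and copies leaves cells 18 to 22 high. The sum was 63.8 to 701 FPKM with a median of 237 in cells 1 to 17, 466 to 2660 with a median of 1650 in cells 18 to 22, and 210 to 5481 with a median of 1383 in cells 23 to 28. Pools had sums of 323, 156, 107 and 208. The copy Gm5559 was found in 31 libraries at a mean of 50.5 FPKM, and Gm13394 in 25 at a mean of 20.6. Gm3200, which carries 14 of the base differences noted above, had a mean of 25.5 that rested on 1 library: it was 733 of the 896 FPKM of copies in microglia-like cell 19 and at most 32.4 in any other library.

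**Figure D2:**
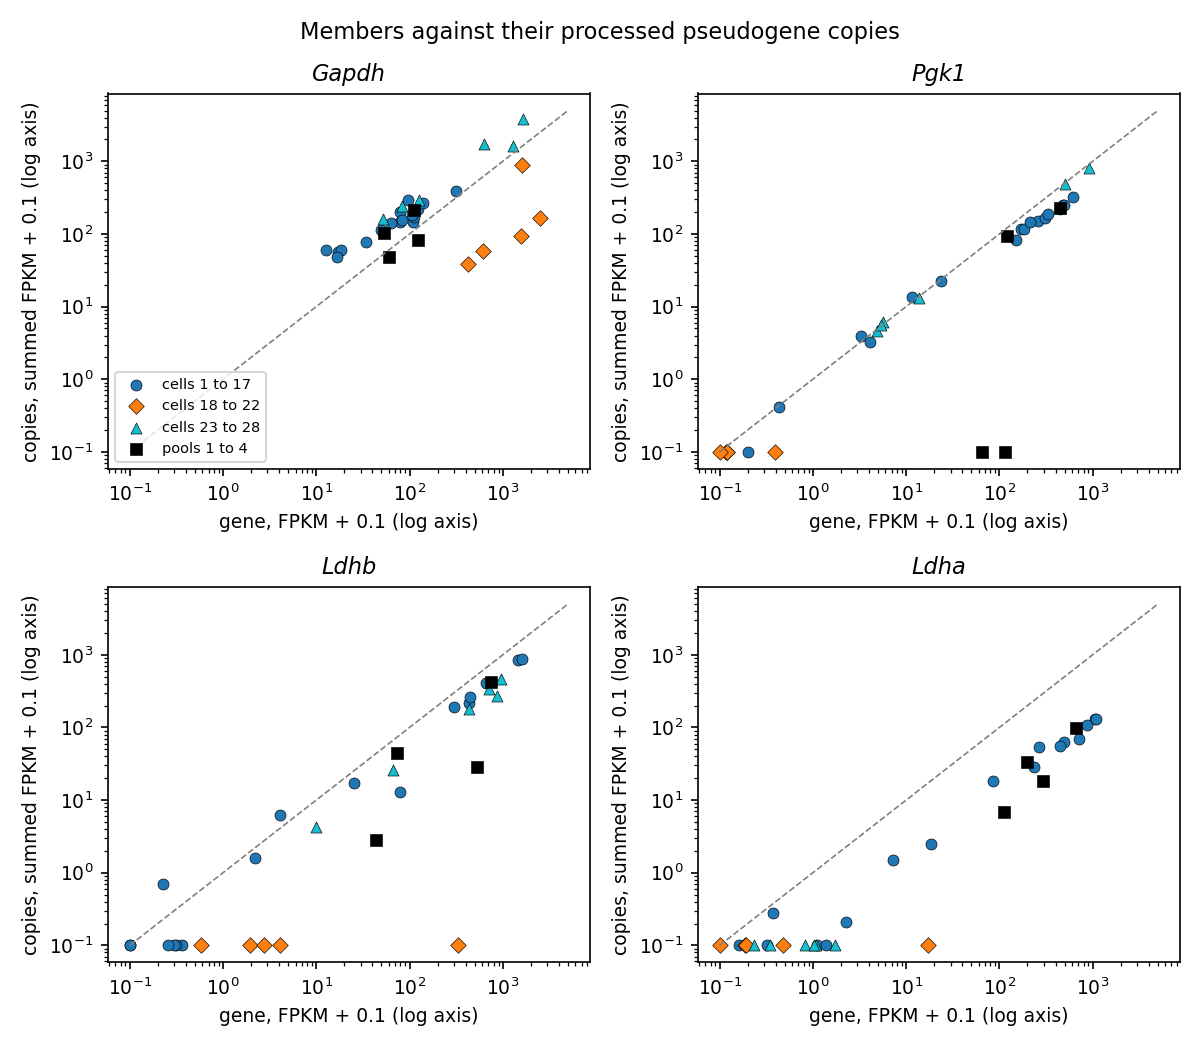
FPKM of a gene and the summed FPKM of its processed pseudogene copies, per library, in panels for Gapdh, Pgk1, Ldhb and Ldha on log axes of FPKM + 0.1, with a dashed line where both are equal. For Gapdh, cells 18 to 22 lie on the side of the gene, with 64.1% to 94.2% of the sum, while cells 1 to 17 have 17.2% to 44.5%.

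Copies of Pgk1, Ldhb, Ldha and Aldoa varied with their genes across cells. Over the 28 cells the Spearman correlation of gene and summed copies was 0.99 for Pgk1, 0.90 for Aldoa, 0.88 for Ldhb, 0.87 for Ldha and 0.57 for Gapdh. Over cells 1 to 17 it was 0.99, 0.95, 0.94, 0.97 and 0.90 in the same order. These are descriptions over cells that share library preparation and sequence with their copies. Pgk1 held 45.8% to 66.6% of the sum with its copies in cells 1 to 17. In pools 1 and 2 the Pgk1 copies had 224 and 94.8 FPKM, but they were listed at 0 in pools 3 and 4. Their aligned coding bases are nonetheless the same as the gene's. Ldhb held a median of 62.2% in cells 1 to 17, and its copy was listed at 0 in all of cells 18 to 22, including cell 19 with 328 FPKM of Ldhb. The copy's FPKM is that of its 306-base model, so this share depends on that length. The copy of Ldhb had 420, 44.3, 2.73 and 28.6 FPKM in pools 1 to 4. Ldha held a median of 89.0% in cells 1 to 17 and Aldoa 99.8%.

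Ldha (chr7:46841475-46855627) was found in 15 of 28 cells, 53.6% with an interval of 33.9% to 72.5%, in 7 of the 8 endothelial-like cells and in 6 of the 9 others of cells 1 to 17. Ldhb (chr6:142490249-142507957) was found in 20 cells, 71.4% with an interval of 51.3% to 86.8%, in 2 of the 8 endothelial-like cells and in 8 of the 9 others. Without trace values, Ldhb went to 16 cells. Ldha stayed at 15, but this count could not have changed, since the limit for Ldha lies below 1 FPKM in both library sets.

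In endothelial-like cells 1, 2, 3, 6, 7, 8, 16 and 17, Ldha stood at 0.219, 236, 7.19, 18.2, 1069.6, 872, 264 and 721 FPKM. Ldhb in the same cells was 0.26, 25.1, 0.216, 4.00, 0.13, 0, 0.199 and 0.157 FPKM. The share of Ldha in the sum of both was taken where either was found. It was above 50% in all 7 endothelial-like cells with a value, from 82.0% to 100% with a median of 99.9%, and cell 1 had neither. The 9 other cells outside the sets gave 8 values, of which 2 were above 50%, and their median was 15.3%.

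Astrocyte-like cell 11 had 85.7 FPKM of Ldha against 1602 of Ldhb, and cell 14 had 2.18 against 302. Oligodendrocyte-like cells 4 and 13 had 0.0607 and 0.273 of Ldha against 78.1 and 445 of Ldhb. The third of that class, cell 12, had 441 and 436, close to equal, and turned to the Ldhb side when copies were added to each gene. The Ldhb copy was added there at the FPKM of its 306-base model. Choroid plexus-like cell 5 had 498 and 1457. Cell 10, led by the neural stem list, had 1075 and 656, the highest Ldha of any cell. Ependymal-like cells had little of either: 0.995 and 0 in cell 9, and 1.29 and 2.10 in cell 15.

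Neuroblast-like cells 23 to 28 had 967, 66.5, 864, 709, 434 and 9.85 FPKM of Ldhb, and Ldha did not exceed 1.64 there. The Ldha share was below 50% in 6 of 7 neuroblast-like cells, and cell 22 was the exception at 86.4%, with 16.9 FPKM of Ldha. Microglia-like cells had at most 0.378 of Ldha, and only cell 19 had much Ldhb, at 328 FPKM. Since all neuroblast-like and microglia-like cells are in the library sets, class and set cannot be told apart for them.

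Ldha was 200 FPKM in pool 1, 669 in pool 2, 290 in pool 3 and 112 in pool 4. Ldhb was 751, 73.8, 43.7 and 525. The Ldha share was 90.1% and 86.9% in pools 2 and 3, whose endothelial list means were 8.26 and 8.64, and 21.0% and 17.6% in pools 1 and 4, where those means were 1.01 and 1.01. All 12 endothelial markers were found in pools 2 and 3. Other lists split the pools in the same way. The choroid plexus list means of pools 1 to 4 were 7.81, 1.21, 1.73 and 6.68, and those of the oligodendrocyte list 8.84, 6.53, 1.33 and 9.36. With copies added the shares were 16.6%, 86.6%, 86.9% and 17.7% in pools 1 to 4. The Ldhb copy entered these at the FPKM of its 306-base model, and the effect of that length was not tested. The part of any of these cell types in the pools' shares was not tested.

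**Figure D3:**
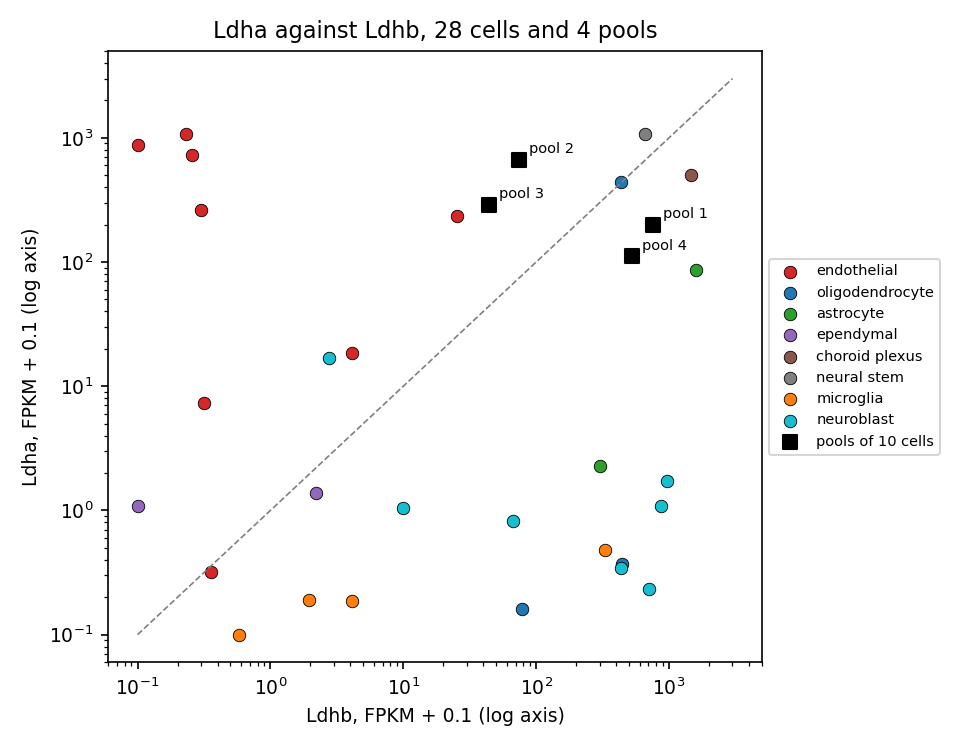
Ldha against Ldhb in each library, FPKM + 0.1 on log axes, coloured by leading marker list, with a dashed line where both are equal. Endothelial-like cells with a value lie on the Ldha side at 82.0% to 100%, and pools 2 and 3 lie with them at 90.1% and 86.9%.

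The 8 endothelial-like cells were set against the 9 others among cells 1 to 17 by the difference of mean log2(FPKM + 1), which understates changes of low genes. A gene was called at a difference of 1 or more in either direction. Of the 10 members, 1 was called higher in endothelial-like cells, where 11.1% of 17926 genes were, and 6 were called lower, where 27.6% of genes were. The median difference of the members was -1.16, and that of all genes -0.36. The endothelial-like cells also had fewer genes found, 3062 to 6979 with a median of 5396.5 against 3916 to 10169 with a median of 6962, and the part of this in the differences was not tested.

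Ldha was the member called higher, at 2.32, with means of 6.61 ± 3.63 (SD, n = 8) and 4.28 ± 4.19 (SD, n = 9). Ldhb was lower by the widest margin, at -6.11, with 1.04 ± 1.66 against 7.14 ± 3.83. Pgk1 differed by -3.86, with 4.06 ± 3.44 against 7.92 ± 1.38, and Tpi1 by -3.39, with 4.46 ± 3.85 against 7.85 ± 1.80. Smaller differences were those of Pfkp (-1.93), Gapdh (-1.18) and Aldoa (-1.14). The differences of Ldhb and Pgk1 were larger than the SD of either cell group, and those of the other 5 called members were smaller than the larger SD. Hk1 at 0.37, Hk2 at -0.40 and Eno2 at -0.09 were not called. No member had values that did not overlap between the cell groups, and 0.502% of all genes did. With cells 18 to 28 added to the others, 2 members were called higher and 3 lower: Aldoa turned to 1.48, Gapdh went to -2.60 and Pgk1 to -1.05, and the calls of Tpi1 (-0.81) and Pfkp (-0.54) were lost. A pseudocount of 10 ended the calls of Gapdh (-0.998) and Aldoa (-0.78), and medians in place of means those of Pfkp (-0.29) and Aldoa (-0.76).

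Pools were set against cells by the log2 ratio of their mean FPKM values, each with 1 added, called at 1 or more in either direction. No member was called higher, where 12.9% of 19783 genes were, and 1 was called lower, where 13.9% were. The median ratio of the members was 0.13, with an SD of 0.64 over the 4 pools, and that of all genes was 0.06. It was -0.05 without pool 1 and -0.03 without pool 4. Pool by pool the members' median was 0.13, -0.60, -1.11 and 0.24, so pools 2 and 3, led by the endothelial list, were the lower pair. None of the members had pool values wholly above or below all cells, and 0.0101% of genes did.

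Gapdh was the member called lower, at -2.28, with 86.9 ± 36.2 FPKM (SD, n = 4) in pools and a mean of 427 over cells. Against cells 1 to 17, whose mean was 84.8, the ratio was 0.035 and the call was gone. It was also gone with means of log2(FPKM + 1), at -0.83, while scaling to the same upper quartile gave -4.83. The remaining ratios were 0.74 for Ldha, 0.60 for Hk1, 0.50 for Aldoa, 0.41 for Pfkp, 0.21 for Ldhb, 0.04 for Eno2, 0.01 for Pgk1, -0.21 for Tpi1 and -0.43 for Hk2. Tpi1 turned to 0.18 when libraries were scaled to the same FPKM sum. Scaling to the same upper quartile gave Pgk1 -0.96 and Ldhb -0.99, and brought Ldha past the threshold at 1.12 and Hk2 at -2.57. Several uncalled ratios also depended on 1 pool: without pool 1 Pgk1 was -0.87 and Ldhb -0.49, without pool 3 Hk1 was -0.35, and without pool 4 Pfkp was -0.68 and Ldhb -0.05. Ldha was 0.08 without pool 2 and 1.02 without pool 4. Against cells 1 to 17, Ldha was 0.03, Hk1 0.01, Aldoa 0.05, Ldhb 0.24, Eno2 0.01, Tpi1 -0.50, Hk2 0.58, Pfkp -0.25 and Pgk1 -0.23, so no member was called.

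**Figure D4:**
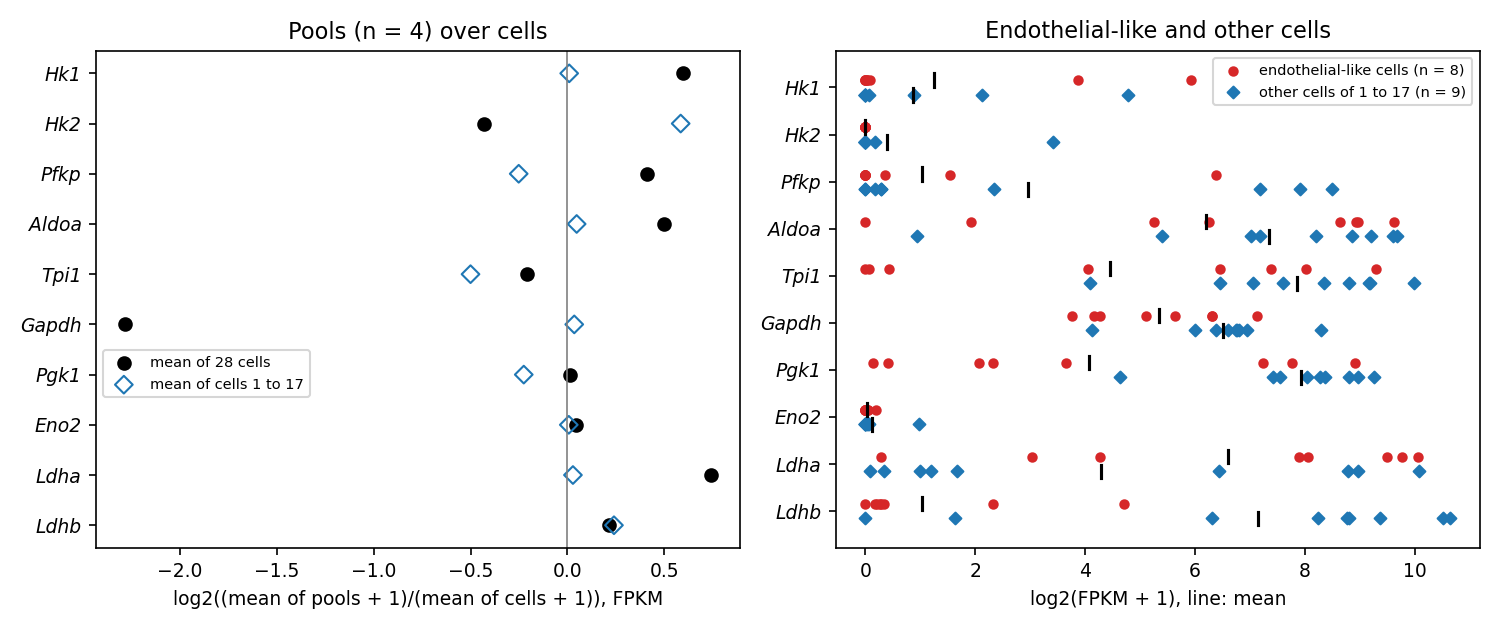
Left, log2 ratio of pools over cells for each member, against the mean of 28 cells (filled) or of cells 1 to 17 (open). Right, log2(FPKM + 1) of the 8 endothelial-like and 9 other cells of 1 to 17, with lines at the means. Gapdh moves from -2.28 to 0.035 on the left, and Ldhb has means of 1.04 and 7.14 on the right.

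Of 19 other glycolytic and lactate dehydrogenase genes, 12 were found in some cell and 7 in none, Hk3, Pgk2, Pgam2, Pklr and Ldhc among them. In endothelial-like against other cells none was called higher, where 11.1% of all genes were, and 4 lower, where 27.6% were. Aldoc, the aldolase typical of astrocytes, was among those at -6.31. It had 8498 FPKM in astrocyte-like cell 11, 1906 in cell 14, 1004 and 524 in ependymal-like cells 9 and 15, 386 in oligodendrocyte-like cell 12, and was found in 0 of 8 endothelial-like cells. Pools had 3.79, 25.4, 94.7 and 1387 FPKM of Aldoc, the last in pool 4, which had the highest astrocyte list mean. Pool 4 also had the highest means of the oligodendrocyte (9.36), ependymal (5.35), neural stem (4.21) and neuroblast (1.04) lists. The part of any of these cell types in the Aldoc values was not tested. In cell 14, where Aldoa was 0.926 FPKM, Aldoc was thus the aldolase found.

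Eno1, the widespread enolase, was found in 22 cells where Eno2 was found in none, with a highest value of 2367 FPKM in cell 2 and pools at 734, 326, 301 and 428. Pkm, pyruvate kinase, was found in 23 cells, up to 803 FPKM in cell 5. Pgam1, phosphoglycerate mutase, was found in 21 cells and Gpi1, glucose-6-phosphate isomerase, in 18. Among cells 1 to 17 alone, the counts were 17 for Eno1, 15 for Pkm, 16 for Pgam1 and 15 for Gpi1. The liver-type subunit Pfkl was found in 7 cells, 4 of them among cells 1 to 17. Its highest value was 248 in microglia-like cell 18, where Pfkp was listed at 0. The muscle-type subunit Pfkm was found in 10 cells, all among cells 1 to 17, with its highest value of 204 in cell 11. Hk3 was listed at 0 in every cell and had 6.25 FPKM in pool 2, the pool with the highest microglial list mean, 7.27.

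Of 9 genes for glucose and lactate transport, 3 were called higher in endothelial-like cells, beside 11.1% of all genes, and 1 lower, beside 27.6%. The median difference of these 9 was 0. Emb, a partner of monocarboxylate transporters, was the one lower, at -3.02. Slc2a1, the glucose transporter of the blood-brain barrier, was found in all 17 cells outside the sets and in none of cells 18 to 28, and differed by 3.96. Its pool values were 59.1, 661, 1475 and 141 FPKM. Bsg, which escorts monocarboxylate transporters to the membrane, differed by 4.85 and reached 13455 FPKM in cell 2. Slc16a1, the transporter MCT1, differed by 1.91 and was found in all 8 endothelial-like cells, with a highest value of 346 in cell 16. Pools 2 and 3 had 112 and 108 FPKM of Slc16a1, and pools 1 and 4 had 18.5 and 25.2. Slc16a3 and Slc16a7 were found in no cell, the former with 2.49 and 5.07 FPKM in pools 1 and 2 and the latter with 10.7 in pool 1. Slc2a3, the neuronal glucose transporter, was found in 6 cells, 3 of them among cells 1 to 17. It had 148 FPKM in neuroblast-like cell 25 and 40.4 in ependymal-like cell 9.

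Among 12 control genes of the pathway, 2 were called higher in endothelial-like cells and 1 lower, against the same shares of 11.1% and 27.6%. Epas1, a hypoxia-inducible factor known in endothelium, differed by 6.45, and Hif1a by -2.19. Pfkfb4, a bifunctional regulator of phosphofructokinase, had 466 FPKM in cell 22 and was found in 3 other cells. It had 47.4 in cell 11, and 1.52 and 6.32 in cells 18 and 19. The latter values lie under 2% of that of cell 22, in the same library set. Of 14 genes for pyruvate entry into mitochondria, all were found in some cell, none was called higher and 9 were called lower in endothelial-like cells, where 11.1% and 27.6% of all genes were. The lower number of genes found in those cells, given above, stands beside this count too. Mpc2, a mitochondrial pyruvate carrier subunit, and Pdhb, a pyruvate dehydrogenase subunit, each differed by -4.56, while the other carrier subunit Mpc1 stood at 0.44. In pools over cells the counts higher and lower were 2 and 3 of the 19 glycolytic genes, 0 and 3 of the control genes, 5 and 1 of the transporters, and 3 and 2 of the genes for pyruvate entry, beside 12.9% and 13.9% of all genes. Against cells 1 to 17 they were 3 and 1, 0 and 1, 3 and 0, and 0 and 0 in the same order, beside 9.55% and 6.82%.

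**Figure D5:**
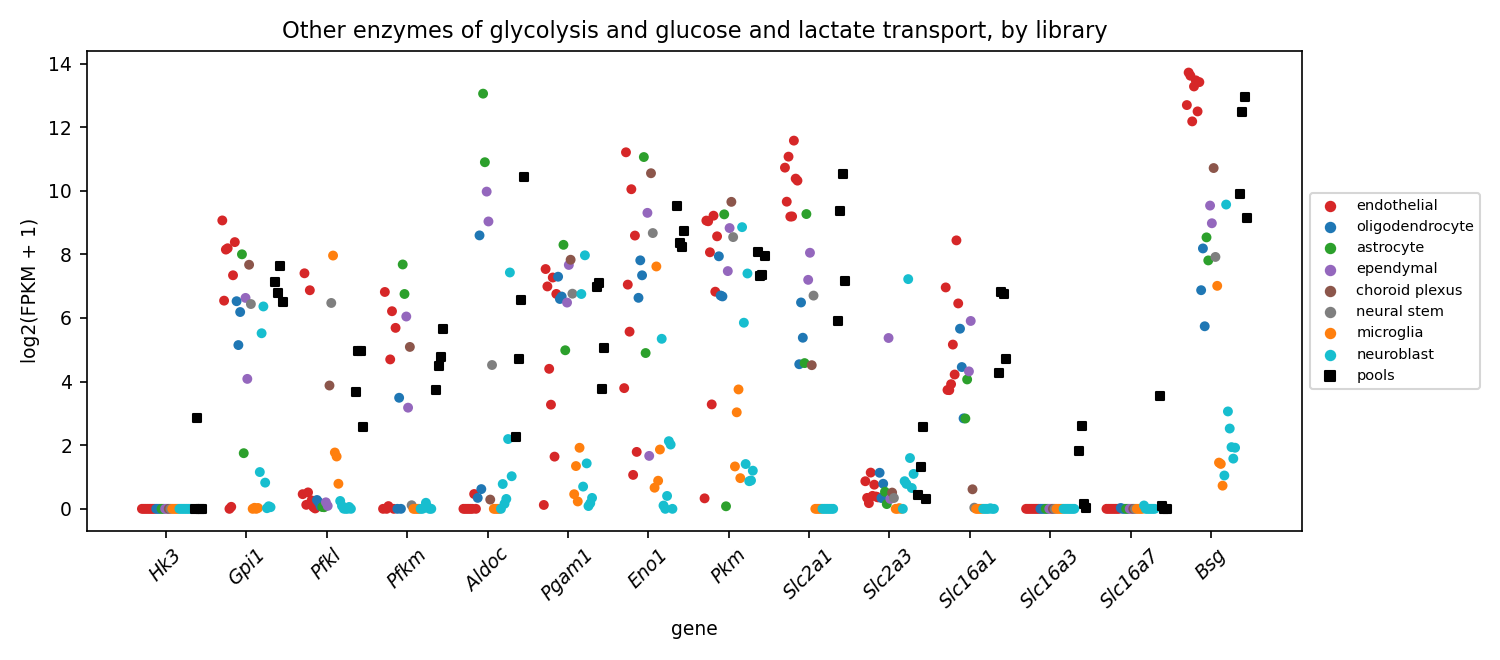
log2(FPKM + 1) of isozymes and of glucose and lactate transporters in each library, with 1 point per library, cells coloured by leading marker list and pools as black squares. Slc2a1 is found in all 17 cells outside the library sets and in none of cells 18 to 28, and Aldoc is highest in an astrocyte-like cell at 8498 FPKM.

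By coefficient of variation, Gapdh as a reference gene varied more over cells than some others in use. Its coefficient of variation over 28 cells was 154%, the 11th lowest of the 22 genes formed by the members and 12 common reference genes. Ppia had 81.2%, Actb 99.5%, Aldoa 132%, Pgk1 133% and Tpi1 142%. Over cells 1 to 17 the value for Gapdh was 84.0%, the 4th lowest, against 50.2% for Ppia, 54.6% for Actb and 57.1% for Rplp0. The highest Gapdh value was 199 times the lowest. That ratio was 149 for Actb, 846 for Ppia and 3334 for Rplp0, which were also found in all 28 cells.

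Correlations among the members were mostly low. The median Spearman correlation of their 45 pairs was 0.12 over 28 cells and 0.20 over cells 1 to 17. Pfkp with Tpi1 gave 0.64 and 0.56, and Aldoa with Pgk1 0.63 and 0.40. Aldoa with Gapdh turned from -0.41 over 28 cells to 0.39 over cells 1 to 17. The nearest genes by Spearman correlation over 28 cells, among 3556 genes found in at least 14 cells, were for Pgk1 its copies Gm5537 and Pgk1-rs7 at 0.99, and for Ldhb its copy Gm5514 at 0.88 and then Hif1a at 0.71. For Gapdh they were its copy Gm14148 at 0.86 and then Bex2 at 0.79. Rheb at 0.85 and Dnajc7 at 0.81 were near Aldoa, Snrpn at 0.73 near Tpi1, and Tax1bp3 at 0.78 near Ldha. Over cells 1 to 17 the values were 0.73 for Hif1a, 0.77 for Gm14148, 0.72 for Bex2, 0.625 for Rheb, 0.73 for Dnajc7, 0.72 for Snrpn and 0.69 for Tax1bp3. Of the 30 nearest genes, 3 per member, 6 were again among the nearest 3 over cells 1 to 17. The cells share depth and library set, and for genes found in few cells, such as Hk1 and Hk2, most of the values compared are below 1 FPKM.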

How the data were processed

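Expression had been measured by RNA-seq in 28 single cells and 4 pools of 10 cells. The authors deposited 1 table of FPKM per gene. Reads were processed with TopHat 1.41 and Cufflinks 2.02, per the submitters' processing notes, which name build mm9. The table's loci match GRCm38 in place of mm9: 96.0% of 39011 lines carry a GENCODE M21 gene ID and 99.7% of those overlap that gene on GRCm38. Coordinates are therefore given as GRCm38, 1-based. For strand, read layout and multiply mapped reads, the settings are not given in the sources used. Hk1, Hk2, Pfkp, Aldoa, Tpi1 and Gapdh overlap a gene on the other strand (Hk1os, Gm17034, Pitrm1, Fam57b, Spsb2 and Iffo1), so reads there may be shared.

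Lines of the same symbol were summed, and 27 symbols turned into dates were restored from gene IDs. A gene was found at FPKM of at least 1, and a pseudocount of 1 was used on the log2 scale. Copies were matched with BLAST 2.17.0 at 90% identity over 50% of the copy's length. Other steps used Python 3.11.15, pandas 2.3.3, numpy 2.4.6 and scipy 1.17.1. The pool ratio and the cell difference were tried on shuffled values with planted changes, and the copy matching on planted sequences. For the ratio and the difference the outcome was all but fixed by the formula, so these trials check the code alone. The other steps were not tried in this way. Depth was read from FPKM times length of 2342 genes of 1 exon, with an assumed fragment length of 200 bp, and is approximate. No doublet was removed, and a low value cannot be given its own counting error from FPKM.

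The members and all gene lists were chosen with earlier results of these data known, as were the library sets. Named genes were all members, the 3 highest of each other list by mean FPKM, the isozymes and transporters listed for these steps, the 3 highest copies and the 3 nearest genes. Some genes under this rule are not reported here. No test of a difference was made, since cells are not replicates of a condition. Alternatives changed the found threshold, pseudocount, scaling, cells, pools and copy matching. Those using cells 1 to 17 for the found counts, the addition of copies and the 2% limit in the pool ratio, and cells 1 to 17 for the pool counts of the other lists, were added after the data were seen.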

Additional observations from a re-analysis of the deposited data

Results flagged for a closer look

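Pgk1 in pool 1, at 442 FPKM, lay far from the other 3 pools, which had 64.5 to 121 FPKM. The gap to the nearest pool was 0.85 of the whole range, above Dixon's 95% critical value for 4 samples. The Pgk1 copies were also highest in pool 1, at 224 FPKM. Chance alone flags about 1 in 20 of such groups, and 11 were examined.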

How the results depend on the processing

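The values of the list were counted as same in 28 of 30 alternatives. The exceptions were the median pool ratio from means of log2 values, 2.40 in place of 0.13 (all genes 0.95 in place of 0.06), and the number of copies at 80% identity, 309 in place of 149. Means of log values put 7 members and 48.5% of all genes past the threshold upward, and the cause was not tested. For single members, 244 of 278 alternatives were counted as same, 32 as moved and 2 as reversed. Same did not require the same sign or call. For the median pool ratio it asked for the same direction or a value within the spread over pools, an SD of 0.64. That median thus counted as same at -0.42 under the same upper quartile, -0.05 without pool 1 and -0.03 without pool 4. The spread over pools does not apply to the alternatives of counts or of differences between cells. Pool ratios counted as same included Pfkp at -0.68 without pool 4, in place of 0.41, and Hk1 at -0.35 without pool 3, in place of 0.60. Ldha at 1.12 under the same upper quartile, in place of 0.74, was another. Gapdh reversed in pools over cells 1 to 17 only, 0.035 in place of -2.28. Aldoa reversed in endothelial-like against all other cells, 1.48 in place of -1.14. Leaving out each pool in turn moved the median ratio from -0.05 to 0.18, with 5 to 7 members higher. The same upper quartile gave a median of -0.42, with 16.1% of genes higher and 27.9% lower in place of 12.9% and 13.9%. Among endothelial-like against all other cells these shares were 18.7% and 12.9% in place of 11.1% and 27.6%. Ldhb differed by -8.50 and Ldha by 6.30 from medians in place of means. The found pairs numbered 173 at 0.1 FPKM, 112 at 10 FPKM, 125 under the 2% limit, 133 without cells 18, 20 and 21 and 95 in cells 1 to 17, in place of 141. At 0.1 FPKM Ldha was found in 24 cells and Pfkp in 12. Ldha exceeded Ldhb in 10 cells, and in 9 with copies added. No paired analysis was possible because the numbers of cells and pools link no library of one group to a library of the other.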
